A study of Rattus norvegicus with 30 samples.

Results

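The alcohol dehydrogenases (ADH) and aldehyde dehydrogenases (ALDH) followed here are Adh1, Adh5, Adh6, Adh7, Aldh1a1, Aldh1a2, Aldh1a3, Aldh1a7 and Aldh2. They were chosen by gene symbol, with no threshold on any value, but the family was taken up with comparisons of these libraries already known, among them the different effect of pancreatitis on Adh6 at 6 and 24 hours. That difference is therefore given as a description, and the adjusted p-values of the other comparisons place each gene among all genes tested and are no independent support for the choice. Of the 9 genes, 7 had a row in the deposited tables of 22914 genes and all 7 passed the low-count filter, which kept 15934 genes. Adh1 and Adh5 had no row under these symbols and were not analysed here.

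Enzymes of both families pass alcohols on to aldehydes and aldehydes on to acids. For vitamin A, retinol is first oxidized to retinaldehyde, by cytosolic alcohol dehydrogenases or by microsomal retinol dehydrogenases, and the ALDH1A enzymes then oxidize retinaldehyde to retinoic acid, the ligand of the nuclear receptors RAR and RXR. CYP26 enzymes clear retinoic acid. In the lung, retinoic acid is known for its part in the formation of alveoli and in keeping the airway lining differentiated.

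The lungs came from male Sprague Dawley rats of 8 weeks, 3 rats and 3 libraries in each of 10 groups, killed 6 or 24 hours after an operation that every rat underwent. In the Sham groups the pancreas was only turned, and in the Con groups saline was infused into the biliopancreatic duct. The SAP groups (severe acute pancreatitis) received 5.0% sodium taurocholate into the duct, a bile salt that injures the pancreas. The DEX groups received taurocholate and then dexamethasone, a synthetic glucocorticoid, at 10 mg/kg into a vein, and the Emo groups received taurocholate and then emodin, a plant anthraquinone, into the stomach. The labels give the emodin dose as 40 mg/kg in one field and 10 mg/kg in another. Both drugs were given at 2 and 12 hours, so that rats of DEX-6h and Emo-6h had received 1 dose, and the vehicle of each drug went to the groups that did not receive it.

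Library depth, as reads assigned to genes, lay between 16813949 and 34692306. The lung label was borne out by its defining markers: surfactant gene Sftpc of alveolar type 2 cells ranged from 12733 to 30191 FPKM, Scgb1a1 of club cells from 16320 to 46742 FPKM and Ager of alveolar type 1 cells from 368 to 1893 FPKM. Of 6 genes of pancreatic acinar cells, Prss1, Pnlip, Cpa1 and Cel were at or under 0.63 FPKM in every library, while Cela1 was 4.78 to 28.4 FPKM and Ctrb1 reached 7.47 FPKM. The study's mapping table lists a smaller share of uniquely mapped reads in the libraries of taurocholate-treated rats, so that for Sham or Con against SAP, DEX or Emo the read processing and the operation cannot be told apart. In that table the share also rose from SAP-24h over DEX-24h to Emo-24h without overlap. Between these groups the read processing and the drug cannot be told apart either. All values are from whole lung, in which fewer cells of a type and less RNA per cell cannot be told apart.

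Levels between genes are compared in FPKM, which corrects for gene length. Aldh2, the mitochondrial enzyme that clears acetaldehyde, was the most abundant of the 7 genes, with 226 to 447 FPKM over the 30 libraries. Aldh1a1, a cytosolic retinaldehyde dehydrogenase, followed with 60.5 to 191 FPKM. Adh6, a class V alcohol dehydrogenase whose substrates are little known, had a median of 13.9 FPKM, and Aldh1a2, the retinaldehyde dehydrogenase of the embryo and of mesothelium, a median of 10.4 FPKM. Lower still were the medians of Aldh1a3 (3.01 FPKM), another retinaldehyde dehydrogenase, and of Aldh1a7 (2.65 FPKM), a rodent gene closely related to Aldh1a1. Adh7, the class IV retinol-oxidizing enzyme known from stomach and other epithelia, had a median of 0.63 FPKM and was under 1 FPKM in 19 of 30 libraries. The ranges of Aldh2 and Aldh1a1 did not overlap each other or those of any other gene, while the ranges of Adh6 and Aldh1a2 overlapped each other. Aldh1a1 and Aldh1a7 resemble each other, and reads mapping to both had been discarded, so that their split is uncertain.

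**Figure D1:**
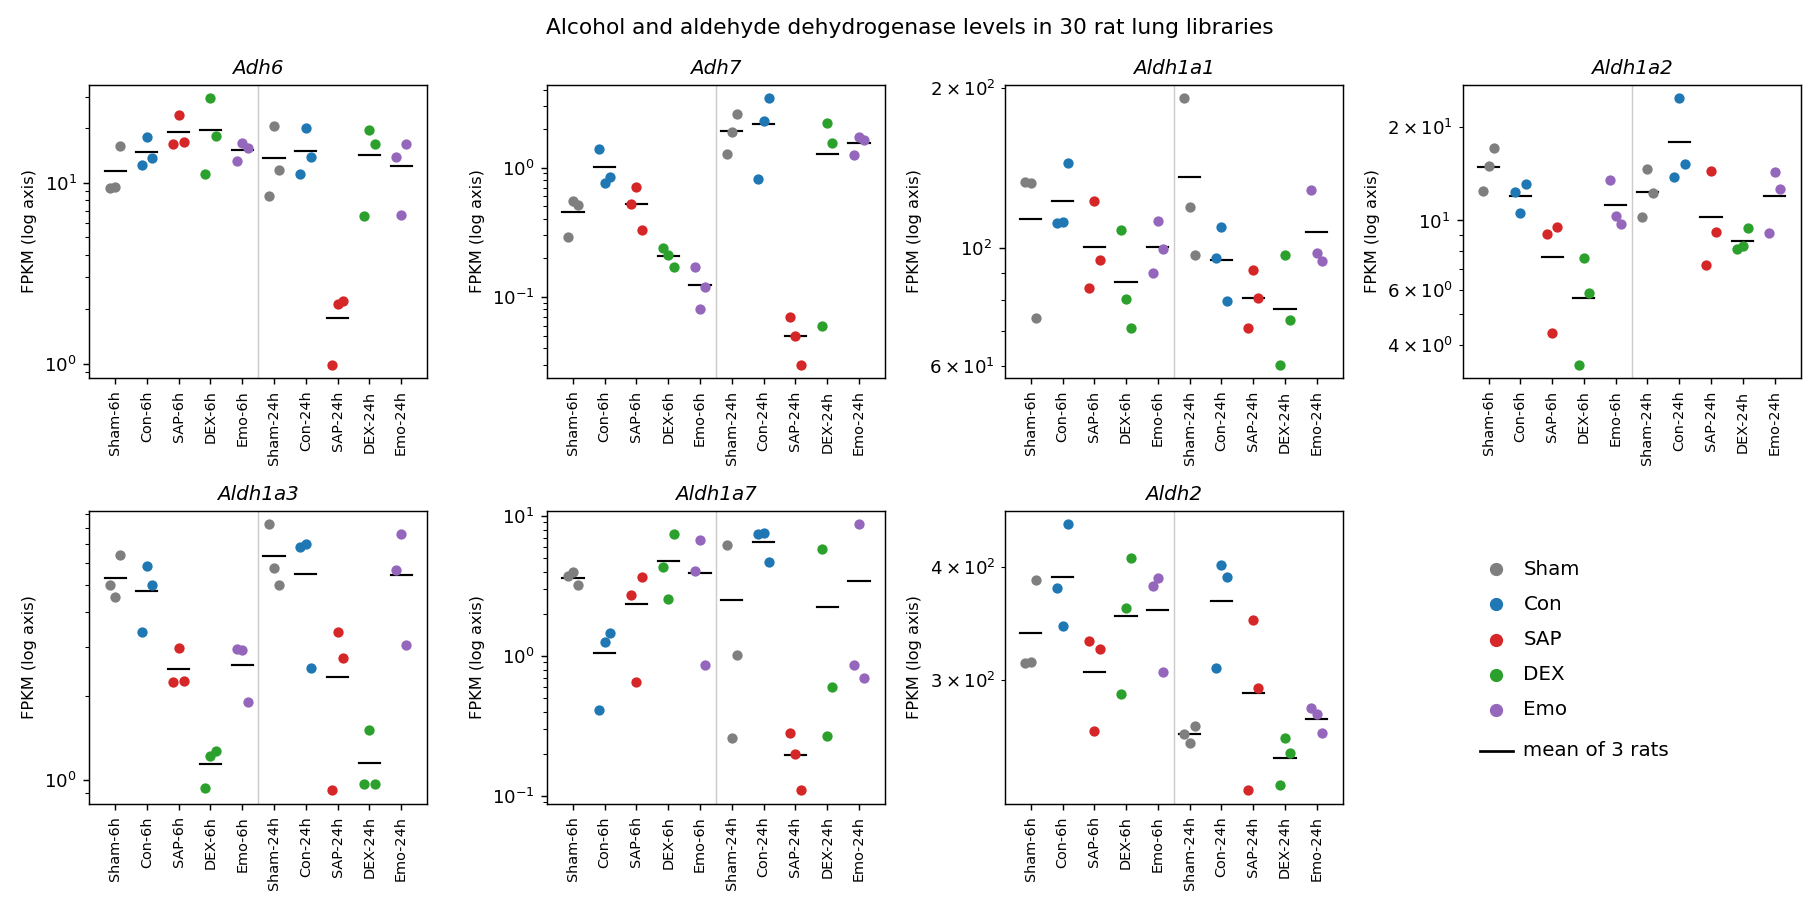
FPKM of the 7 measured genes (vertical log axes, FPKM) in each of the 30 lung libraries; points are single rats, coloured by condition, and bars are means of 3 rats, with 6 h groups left and 24 h groups right of the grey line. The 3 SAP-24h libraries lie below all 27 others for Adh6, and the 6 DEX libraries are among the lowest for Aldh1a3.

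The plot of levels by library shows that the genes varied to very different degrees. The highest library was 1.98 times the lowest for Aldh2, 3.16 times for Aldh1a1, 7.15 times for Aldh1a2, 8.98 times for Aldh1a3, 29.7 times for Adh6, 79.8 times for Aldh1a7 and 114 times for Adh7. For Aldh1a7 much of this lay between rats of 1 group, with a median within-group ratio of 4.61 between the highest and the lowest rat. Over the 30 libraries, the Pearson r of log2 CPM between 2 of these genes ranged from -0.15 (Adh7 with Aldh2) to 0.63 (Aldh1a2 with Aldh1a3). The next highest were 0.57 for Aldh1a1 with Aldh1a3, 0.49 for Adh6 with Adh7 and 0.43 for Adh7 with Aldh1a3, values that share group differences and library scaling.

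Adh6 and Adh7 stood out at 24 hours in untreated pancreatitis. Both lie on chromosome 2, and in the RefSeq annotation of GRCr8 they belong to 1 cluster, in the order Adh7, Adh1c, Adh6a, Adh1-ps1, Adh6, Adh4 and Adh5 with non-coding genes between them. RefSeq promoters (GRCr8, a later build than the one the counts used) matched 5 of the 7 measured genes, not Aldh1a7 or Aldh2. The 250 bases before the annotated start are printed for Adh6 and Adh7, which were both lower in SAP-24h, and for Aldh1a3, a member outside the cluster; each is read 5′ to 3′ on the gene's strand. Capitals mark matches to 4 motifs that were picked with the sequences in view, each searched on both strands. They were a TATA-like motif (TATTTAT), the CCAAT box, the core of many nuclear receptor sites (AGGTCA) and the core of glucocorticoid receptor sites (AGAACA), and no matches of different motifs overlapped.

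Adh6, chr2:229576386-229576635 (+): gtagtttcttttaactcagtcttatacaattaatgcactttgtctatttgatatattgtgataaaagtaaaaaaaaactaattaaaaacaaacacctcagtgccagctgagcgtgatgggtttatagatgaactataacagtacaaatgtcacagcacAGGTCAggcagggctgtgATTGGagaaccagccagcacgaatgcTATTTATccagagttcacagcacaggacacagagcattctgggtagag
Adh7, chr2:229421875-229422124 (+): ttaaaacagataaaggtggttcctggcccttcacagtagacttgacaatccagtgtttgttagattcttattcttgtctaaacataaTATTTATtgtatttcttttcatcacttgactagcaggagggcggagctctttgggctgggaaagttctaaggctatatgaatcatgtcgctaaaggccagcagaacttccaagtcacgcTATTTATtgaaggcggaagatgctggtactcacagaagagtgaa
Aldh1a3, chr1:129427644-129427893 (-): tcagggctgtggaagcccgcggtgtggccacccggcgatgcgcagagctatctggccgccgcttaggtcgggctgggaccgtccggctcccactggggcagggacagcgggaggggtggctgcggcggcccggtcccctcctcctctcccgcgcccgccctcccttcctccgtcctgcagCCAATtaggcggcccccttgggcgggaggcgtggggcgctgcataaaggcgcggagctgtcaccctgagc

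Adh6 and Adh7 both held the TATA-like motif close to the start, from 48 to 42 bases before it in Adh6 and from 44 to 38 bases before it in Adh7, and Adh7 held a further match from 163 to 157 bases before the start. Of 33469 promoter windows of this length, 5.56% held it. The promoter of Adh6 also held the nuclear receptor core, which 14.1% of windows held, and a CCAAT box on the reverse strand, which 34.0% held. In the Aldh1a3 window the single match was a CCAAT box, 70 to 66 bases before the start. The glucocorticoid receptor core, present in 17.5% of windows, had no match in these 3 windows, which says only that these letters are not there. A match is a description of the letters and not a measured site.

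Adh6 was 8.48, 20.6 and 11.8 FPKM in the 3 rats of Sham-24h and 11.2, 20.1 and 13.9 FPKM in Con-24h. In SAP-24h it was 0.99, 2.14 and 2.23 FPKM, from 112 to 255 reads per library. The 3 SAP-24h libraries were thus lower than each of the other 27 libraries, of which the lowest had 6.59 FPKM. In the treated groups Adh6 was 6.59, 19.7 and 16.4 FPKM in DEX-24h and 14.0, 6.66 and 16.4 FPKM in Emo-24h, ranges that overlapped those of Sham-24h and Con-24h. Compared with Sham-24h, Adh6 was lower in SAP-24h with a log2 fold change of -2.83 (SE 0.45, edgeR adjusted p = 0.000938), and compared with Con-24h with a log2 fold change of -2.96 (SE 0.45, adjusted p = 0.000367). The first value is part of the difference known when the family was chosen, and the second holds the same SAP-24h libraries. Both are therefore descriptions, and no support is drawn from their adjusted p-values.

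Adh7 had the larger fold difference at a much lower level. It was 1.27, 1.89 and 2.58 FPKM in Sham-24h and 0.82, 2.27 and 3.43 FPKM in Con-24h. In SAP-24h it was 0.07, 0.05 and 0.03 FPKM, which rested on 11 reads in all. The SAP-24h libraries were below every library of Sham-24h and Con-24h, and the log2 fold change was -5.06 (SE 0.83, adjusted p = 0.00106) compared with Sham-24h and -5.24 (SE 0.83, adjusted p = 0.000404) compared with Con-24h. With so few reads the size of the fold change is uncertain, with a 95% interval of -6.77 to -3.35 on the log2 scale against Sham-24h.

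Among the retinaldehyde dehydrogenases, Aldh1a3 was also lower. It was 8.26, 5.77 and 5.00 FPKM in Sham-24h, 6.85, 7.02 and 2.53 FPKM in Con-24h and 0.92, 3.40 and 2.73 FPKM in SAP-24h. SAP-24h did not overlap Sham-24h but overlapped Con-24h, where replicate 3 lay below 2 of the SAP-24h libraries. The log2 fold change was -1.32 (SE 0.38, adjusted p = 0.0262) against Sham-24h and -1.12 (SE 0.38, adjusted p = 0.0368) against Con-24h. The first call was lost without SAP-24h replicate 1 (-0.95, adjusted p = 0.125), Sham-24h replicate 1 (adjusted p = 0.108) or Sham-24h replicate 2 (adjusted p = 0.0575), and the second without SAP-24h replicate 1 (-0.76, adjusted p = 0.175), SAP-24h replicate 3, Con-24h replicate 1 or Con-24h replicate 2. Both were also lost when the compared groups were fitted alone (adjusted p = 0.23 against Con-24h).

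Aldh1a7 was 7.40, 7.57 and 4.69 FPKM in Con-24h and 0.28, 0.20 and 0.11 FPKM in SAP-24h, with a log2 fold change of -4.89 (SE 1.25, adjusted p = 0.00829). Against Sham-24h, where it was 6.26, 0.26 and 1.01 FPKM, the groups overlapped and the fold change of -3.47 (SE 1.22, adjusted p = 0.0615) was not called. Levels under 1 FPKM occurred in 11 libraries of 7 groups, and 6 groups held rats on both sides of 1 FPKM.

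Of the 7 genes, 3 were DEGs in SAP-24h compared with Sham-24h and 4 compared with Con-24h, all down-regulated. Of all 15934 genes tested, 5.00% and 6.91% were called in these comparisons in either direction, and nothing is read from the count, since the family was chosen with these data known. The median log2 fold change of the 7 genes was -1.32 and -1.12, beside -0.03 and -0.01 over all genes tested. The remaining genes differed less. Aldh1a1 had a log2 fold change of -0.62 (adjusted p = 0.0862) and Aldh2 of 0.27 (adjusted p = 0.243) against Sham-24h, and Aldh1a2 of -0.15 with a 95% interval of -0.78 to 0.47. Against Con-24h, Aldh1a2 had a log2 fold change of -0.69 with an interval of -1.31 to -0.06 (adjusted p = 0.107), Aldh2 of -0.22 and Aldh1a1 of -0.11, and none of these was called. When the SAP-24h and Sham-24h libraries were fitted alone, without the spread of the other groups, 0 members and 3 genes in all were called (adjusted p = 0.0609 for Adh6 and 0.0536 for Adh7), with nearly equal fold changes.

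**Figure D2:**
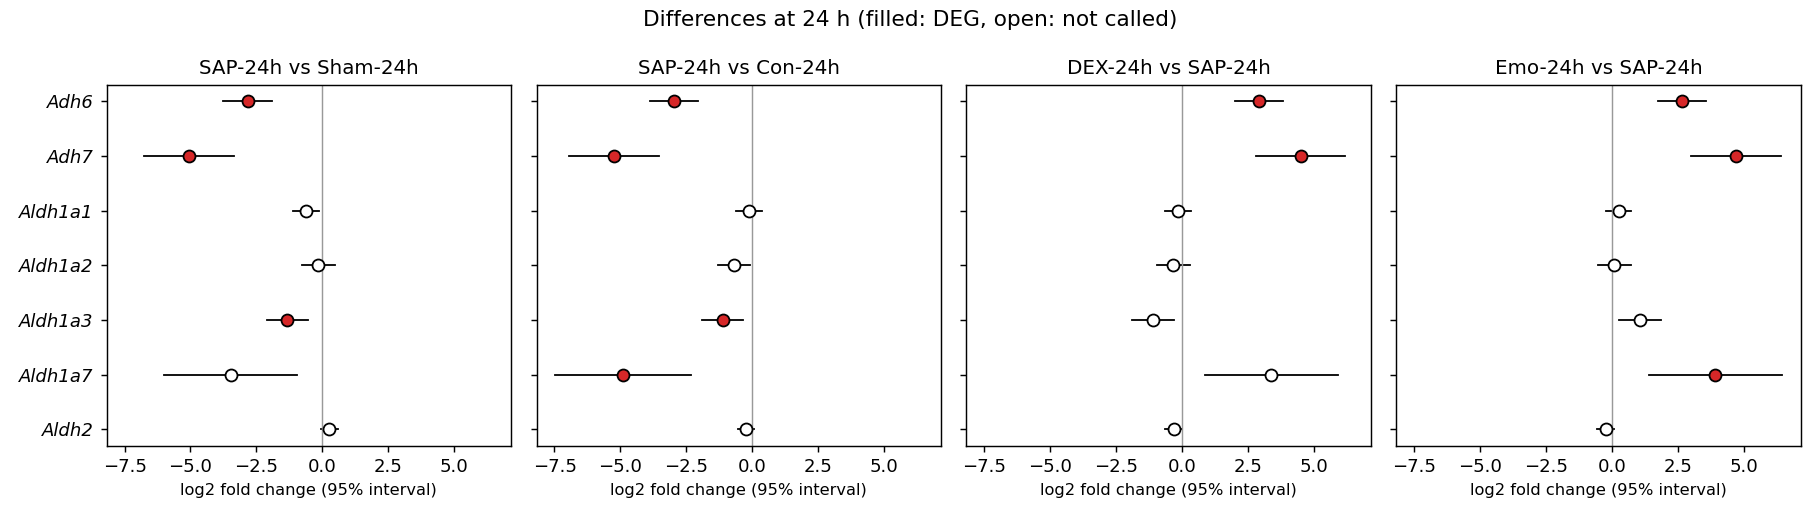
Log2 fold change (horizontal axis) of the 7 genes in 4 comparisons at 24 h; lines are 95% intervals from the edgeR model, filled points are DEGs and open points were not called. Adh6 and Adh7 are lower in SAP-24h than in Sham-24h and Con-24h and higher in DEX-24h and Emo-24h than in SAP-24h, and all 4 panels share the 3 SAP-24h libraries.

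Levels of cell type markers stand beside these differences as the summed FPKM of each list. In the club cell, ciliated cell, basal and squamous, and hepatocyte lists most of the sum came from a single gene. Medians over the 30 libraries were 29583 FPKM for Scgb1a1, 530 FPKM for Tppp3, 79.6 FPKM for Krt14 and 63.2 FPKM for Cyp2e1, in that order. The next highest medians in these lists were 593, 21.5, 4.25 and 0.655 FPKM. The 6 neutrophil markers summed to 4549 to 16481 FPKM in SAP-24h, 198 to 9268 FPKM in Sham-24h and 96.7 to 953 FPKM in Con-24h, with 1 of 6 called higher against Sham-24h and 6 of 6 against Con-24h. Basal and squamous epithelial markers summed to 33.1 to 48.4 FPKM in SAP-24h, 103 to 131 FPKM in Sham-24h and 110 to 145 FPKM in Con-24h, with 1 of 7 called lower against each, the keratin Krt14. Defining markers of that list, Krt5 and Tp63, stayed at or under 1.1 and 0.27 FPKM in every library. The SAP-24h sums were thus apart from both control groups in the basal and squamous list. Most of that sum was Krt14, with means of 36.9 FPKM in SAP-24h, 103 FPKM in Sham-24h and 124 FPKM in Con-24h. In the neutrophil list the SAP-24h sums were apart from Con-24h but not from Sham-24h.

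Fibroblast markers summed to 277 to 381 FPKM in SAP-24h, 503 to 648 FPKM in Sham-24h and 379 to 632 FPKM in Con-24h, with 3 of 9 called lower against Sham-24h and, against Con-24h, 2 lower and 1 higher (Pdgfra). Mesothelial markers summed to 42.5 to 128 FPKM in SAP-24h, 126 to 163 FPKM in Sham-24h and 141 to 235 FPKM in Con-24h, with Krt19 and Bnc1 called lower against Sham-24h and Krt19 against Con-24h. The median log2 fold change of the 7 mesothelial genes was 0.35 against Sham-24h and -0.64 against Con-24h, so that against Sham-24h the sum and the median differed in sign. Of 6 alveolar type 1 markers, Aqp5 was called lower against both, and the list summed to 1267 to 2545 FPKM in SAP-24h, below the 2640 to 3542 FPKM of Con-24h and overlapping the 2482 to 3250 FPKM of Sham-24h. Among 6 macrophage markers, Marco was called higher against both. Its means were 0.38 FPKM in SAP-24h, 0 FPKM in Sham-24h and 0.0067 FPKM in Con-24h, which leaves the size of the difference uncertain. Against Con-24h, the endothelial Kdr was called lower, with endothelial markers summing to 909 to 960 FPKM in SAP-24h and 1115 to 1351 FPKM in Con-24h, and 2 of 7 hepatocyte markers were called higher. These 2 were at low levels, Apoa1 with means of 0.57 FPKM in SAP-24h and 0.10 FPKM in Con-24h and Fgb with 0.15 and 0 FPKM. The hepatocyte sums overlapped, at 30.2 to 161 FPKM in SAP-24h and 38.5 to 181 FPKM in Con-24h. No marker of ciliated cells, club cells or smooth muscle was called against either control. The ciliated cell sums, mostly Tppp3, were 311 to 597 FPKM in SAP-24h, 645 to 763 FPKM in Sham-24h and 846 to 904 FPKM in Con-24h. For smooth muscle the sums were 256 to 411, 482 to 710 and 488 to 892 FPKM in the same order. For club cells, mostly Scgb1a1, they were 37555 to 47345, 19999 to 36429 and 36496 to 44005 FPKM. The part of these cell types in the levels of Adh6, Adh7, Aldh1a3 and Aldh1a7 was not tested.

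DEX-24h and Emo-24h were also set against SAP-24h, in comparisons that share the SAP-24h libraries with those above. For Adh6 these libraries hold values behind the choice of the family. Its values in DEX-24h and Emo-24h against SAP-24h are therefore descriptions, and no drug effect is read from their adjusted p-values. Adh6 was up-regulated in both, with a log2 fold change of 2.92 (SE 0.45, adjusted p = 0.000449) in DEX-24h and 2.66 (SE 0.44, adjusted p = 0.00268) in Emo-24h, and in each case all 3 treated libraries were above all 3 SAP-24h libraries. For Adh7 the Emo-24h values of 1.25, 1.72 and 1.63 FPKM were likewise all above SAP-24h, with a log2 fold change of 4.71 (SE 0.82, adjusted p = 0.00387). In DEX-24h, Adh7 was 0.06, 2.19 and 1.56 FPKM, from 5, 152 and 108 reads. Replicate 1 of DEX-24h therefore lay within the range of SAP-24h, while the other 2 rats reached the levels of Sham-24h. The log2 fold change in DEX-24h was 4.50 (SE 0.82, adjusted p = 0.00203), 5.09 without that library and 3.82 without DEX-24h replicate 2. Fitted with SAP-24h alone, both calls in Emo-24h were lost (adjusted p = 0.102 for Adh6 and 0.0671 for Adh7), and Adh7 in DEX-24h did not pass the low-count filter. Markers also differed between these groups. Basal and squamous epithelial markers summed to 80.8 to 172 FPKM in DEX-24h and 77.2 to 90.9 FPKM in Emo-24h, above the 33.1 to 48.4 FPKM of SAP-24h, with Krt14 called higher in DEX-24h (1.52). Neutrophil markers summed to 1075 to 3027 FPKM in DEX-24h and 4326 to 6605 FPKM in Emo-24h beside 4549 to 16481 FPKM in SAP-24h, with none called in either comparison. Smooth muscle markers summed to 444 to 588 FPKM in DEX-24h and 456 to 670 FPKM in Emo-24h, above the 256 to 411 FPKM of SAP-24h, with none called. Club cell markers summed to 25587 to 36388 FPKM in DEX-24h, below the 37555 to 47345 FPKM of SAP-24h, and hepatocyte markers to 218 to 332 FPKM, above the 30.2 to 161 FPKM of SAP-24h. Endothelial markers summed to 982 to 1126 FPKM in DEX-24h, above the 909 to 960 FPKM of SAP-24h, and none was called in these 3 lists. Their sums and median log2 fold changes differed in sign, with medians of 0.24 for club cells, -0.09 for hepatocytes and -0.07 for endothelium. Also called were Krt19 (1.53), the ciliated cell gene Ccdc39 (1.04) and Pdgfra (-1.54) in DEX-24h, and Lum (1.85), Pdgfra (-1.08) and Sftpd (-1.01) in Emo-24h. The part of these cell types in the levels of Adh6 and Adh7 was not tested.

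Counted over the 7 genes, 2 were DEGs in DEX-24h and 3 in Emo-24h compared with SAP-24h, beside 3.73% and 3.19% of all genes tested in either direction. These shares are those of edgeR. DESeq2 called 4 in each, with Aldh1a3 and Aldh1a7 besides Adh6 and Adh7. The log2 fold changes of Aldh1a3 had opposite signs with the 2 drugs, and its levels in DEX-24h and in Emo-24h overlapped those of SAP-24h. By edgeR its log2 fold change against SAP-24h was -1.09 in DEX-24h (adjusted p = 0.0847) and 1.06 in Emo-24h (adjusted p = 0.0774), and neither was called. The third gene called by edgeR in Emo-24h was Aldh1a7, at 0.87, 8.78 and 0.70 FPKM in Emo-24h (log2 fold change 3.92, SE 1.23, adjusted p = 0.0479). This call rested on the high library: without Emo-24h replicate 2 the log2 fold change was 1.79 (adjusted p = 0.404). It was also lost without Emo-24h replicate 1 or without any 1 of the SAP-24h libraries. In DEX-24h, Aldh1a7 was 5.86, 0.27 and 0.60 FPKM, with a log2 fold change against SAP-24h of 3.39 (SE 1.22, adjusted p = 0.0886) that was not called.

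Directly compared, Emo-24h and DEX-24h differed in 1 of the 7 genes, Aldh1a3, beside 5.06% of all genes tested. Aldh1a3 was 0.97, 1.51 and 0.97 FPKM in DEX-24h and 5.67, 7.59 and 3.04 FPKM in Emo-24h, so that the groups did not overlap (log2 fold change 2.16, SE 0.39, adjusted p = 0.0015). Markers called in the same comparison were Lum (2.42), Sftpb (-1.11) and Cyp2e1 (-2.21). The sums of 3 lists did not overlap: fibroblast markers were 361 to 603 FPKM in Emo-24h and 265 to 351 FPKM in DEX-24h, neutrophil markers 4326 to 6605 and 1075 to 3027 FPKM, and hepatocyte markers 29.4 to 122 and 218 to 332 FPKM. The hepatocyte sums were mostly Cyp2e1, with means of 63.2 FPKM in Emo-24h and 286 FPKM in DEX-24h. The part of these cell types in the difference was not tested. For Adh6 the difference between the drugs was -0.26 with a 95% interval of -1.11 to 0.59, and for Adh7 0.21 with an interval of -1.09 to 1.51. Emo-24h against Sham-24h gave 0 calls among the 7 genes by edgeR and by DESeq2, 0 at an unadjusted p under 0.05, and 0.00% of all genes tested. The 95% intervals there were -1.02 to 0.68 for Adh6, -1.64 to 0.94 for Adh7 and -1.02 to 0.51 for Aldh1a3.

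Aldh1a3 was low in DEX-treated rats at both times. At 6 hours it was 0.94, 1.22 and 1.27 FPKM in DEX-6h, 2.24, 2.97 and 2.26 FPKM in SAP-6h, 5.01, 4.52 and 6.41 FPKM in Sham-6h and 2.95, 2.93 and 1.90 FPKM in Emo-6h. Every DEX-6h library was below every library of the other groups at 6 hours. Compared with Sham, Aldh1a3 was down-regulated in DEX-6h with a log2 fold change of -2.18 (SE 0.39, adjusted p = 0.00147) and in DEX-24h with -2.41 (SE 0.40, adjusted p = 0.000727), and both calls held without any 1 library of the groups compared. In DEX-24h against Sham-24h it was the 1 member called, beside 4.15% of all genes tested. Compared with SAP, the log2 fold changes of -1.13 at 6 hours (adjusted p = 0.186) and -1.09 at 24 hours (adjusted p = 0.0847) were not called. Other fits did call them: the 2 groups alone at 6 hours, and DESeq2 or leaving out SAP-24h replicate 1 at 24 hours. Markers called in DEX-24h against Sham-24h were Lum (-2.45) and Col3a1 (-1.87) of fibroblasts, Sftpb (1.23) of alveolar type 2 cells, Marco (7.05) of macrophages and Cyp2e1 (2.43) of hepatocytes. Marco had means of 0.30 FPKM in DEX-24h and 0 FPKM in Sham-24h, which leaves the size of its fold change uncertain. The sums of 2 lists did not overlap, at 265 to 351 FPKM in DEX-24h and 503 to 648 FPKM in Sham-24h for fibroblasts and 218 to 332 and 49.6 to 66.7 FPKM for hepatocytes. The hepatocyte sums were mostly Cyp2e1, with means of 286 FPKM in DEX-24h and 54.5 FPKM in Sham-24h. Against SAP-6h, the red blood cell markers were lower in DEX-6h (137 to 1792 FPKM beside 1840 to 2360 FPKM). The part of these cell types in the level of Aldh1a3 was not tested.

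Aldh1a2 was the other gene called at 6 hours. It was 12.5, 14.9 and 17.0 FPKM in Sham-6h, 9.04, 4.37 and 9.56 FPKM in SAP-6h and 3.45, 7.59 and 5.84 FPKM in DEX-6h. It was 13.5, 10.3 and 9.76 FPKM in Emo-6h. Every SAP-6h and DEX-6h library was below every Sham-6h library, while Emo-6h overlapped Sham-6h. The log2 fold change in DEX-6h against Sham-6h was -1.35 (SE 0.31, adjusted p = 0.00794), and the call was lost without DEX-6h replicate 1 (-1.09, adjusted p = 0.0588). In SAP-6h the log2 fold change of -0.90 (SE 0.31, adjusted p = 0.185) was not called. The 2 genes called in DEX-6h against Sham-6h stand beside 3.97% of all genes tested. Summed mesothelial markers were 62.5 to 148 FPKM in DEX-6h and 132 to 235 FPKM in Sham-6h, with 1 of 7 called (Bnc1, -1.58). Of the other lists, 4 of 12 ciliated cell markers (Dnai1, Dnai2, Tekt4 and Ccdc39) and the club cell gene Cldn10 were called higher in DEX-6h. Aqp5 (-1.82) of alveolar type 1 cells, Kdr (-1.45) of endothelium and Adgre1 (-2.10) of macrophages were called lower. The endothelial list as a whole did not follow Kdr, with sums of 1404 to 1544 FPKM in DEX-6h and 1139 to 1150 FPKM in Sham-6h and a median log2 fold change of 0.05. Hepatocyte markers summed to 18.6 to 39.9 FPKM in DEX-6h, below the 47.2 to 76.1 FPKM of Sham-6h, with none called and a median log2 fold change of 0.27, opposite in sign to the sum. The part of these cell types in the levels of Aldh1a2 and Aldh1a3 was not tested.

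In the other 6 h comparisons of SAP-6h, DEX-6h and Emo-6h no member was called by edgeR. SAP-6h against Sham-6h had 2 members at an unadjusted p under 0.05 and 0.220% of all genes called, SAP-6h against Con-6h 1 member and 0.163%, DEX-6h against SAP-6h 1 member and 0.515%, Emo-6h against SAP-6h 1 member and 0.0251%, Emo-6h against DEX-6h 2 members and 1.41%, and Emo-6h against Sham-6h 2 members and 0.477%. DESeq2 called 1 member in these 6 comparisons, Aldh1a3 in Emo-6h against DEX-6h. Adh6 at 6 hours was 16.4, 23.7 and 16.9 FPKM in SAP-6h and 9.37, 9.54 and 16.0 FPKM in Sham-6h, so that all SAP-6h libraries were the higher ones, without passing the test (log2 fold change 0.74, SE 0.41, adjusted p = 0.468). Adh7 was 0.52, 0.71 and 0.33 FPKM in SAP-6h and 0.29, 0.55 and 0.51 FPKM in Sham-6h. It was 0.24, 0.21 and 0.17 FPKM in DEX-6h and 0.17, 0.08 and 0.12 FPKM in Emo-6h, from 6 to 18 reads per library. Both treated groups lay below every SAP-6h library, with log2 fold changes of -1.35 (SE 0.70, adjusted p = 0.464) in DEX-6h and -2.09 (SE 0.74, adjusted p = 0.247) in Emo-6h that were not called. The controls themselves, Sham against Con, had 0 members called by edgeR and by DESeq2 at either time, with 0.00% of genes called at 6 hours and 1.00% at 24 hours and 0 and 2 members at an unadjusted p under 0.05.

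**Figure D3:**
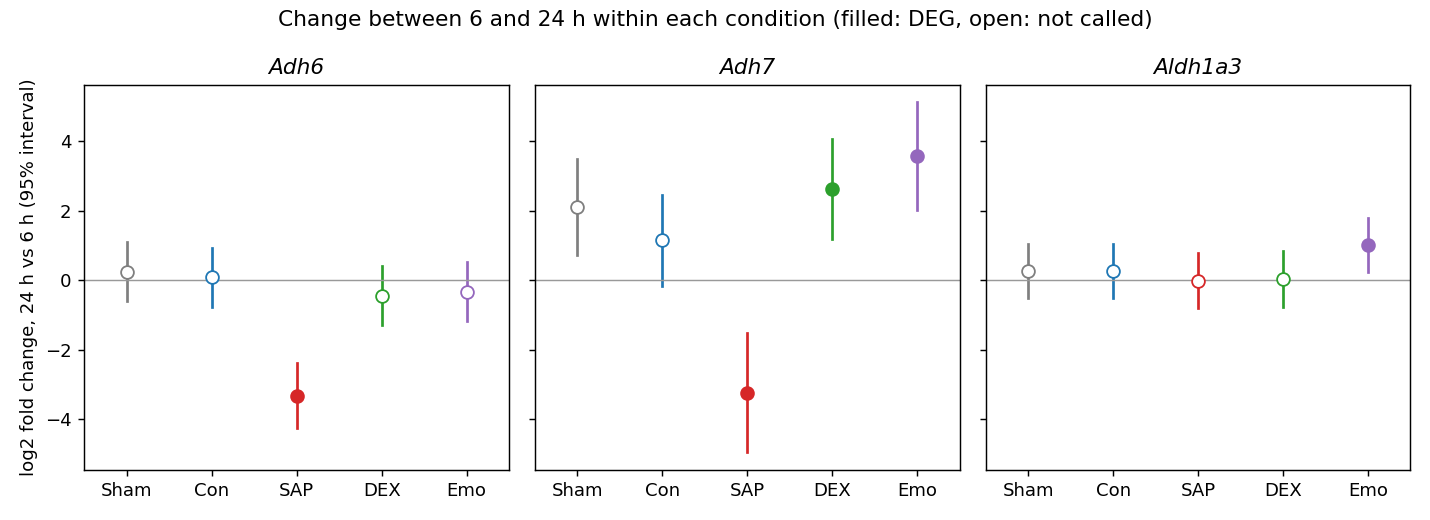
Log2 fold change from 6 to 24 h (vertical axis) of Adh6, Adh7 and Aldh1a3 within each condition; lines are 95% intervals from the edgeR model, filled points are DEGs. Adh7 has a fold change above 0 in Sham, Con, DEX and Emo and below 0 in SAP, and Adh6 is called in SAP.

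The change between the times is shown in the plot of 24 against 6 hours. Adh6 was lower in SAP-24h than in SAP-6h (log2 fold change -3.32, SE 0.45, adjusted p = 0.000791), while in the other conditions its log2 fold changes lay between -0.45 and 0.25 and were not called. The SAP value of Adh6 is part of the difference known when the family was chosen and is a description. Adh7 was up-regulated from DEX-6h to DEX-24h (2.62, SE 0.70, adjusted p = 0.00874) and from Emo-6h to Emo-24h (3.57, SE 0.75, adjusted p = 0.000988). In Sham (2.12, adjusted p = 0.0884) and Con (1.15, adjusted p = 0.548) its fold changes were not called. In SAP, Adh7 was down-regulated (-3.23, SE 0.83, adjusted p = 0.0248), a call lost without SAP-24h replicate 1 or 3 or SAP-6h replicate 1 or 2. The DEX groups overlapped, since DEX-24h replicate 1 (0.06 FPKM) was below all 3 DEX-6h libraries, and the DEX call was lost without DEX-24h replicate 2 (1.94, adjusted p = 0.0608) and with the 2 groups alone (adjusted p = 0.0911). Markers changed between the times as well. Fibroblast markers were called lower at 24 hours in 5 of 9 cases in SAP and in 4 of 9 in DEX, and in Emo 4 were called lower and 1 higher. Of 3 red blood cell markers, 2 were called lower in SAP and 3 in Emo, and their sum was 1840 to 2360 FPKM in SAP-6h and 409 to 834 FPKM in SAP-24h. The sums of 6 other lists did not overlap between SAP-6h and SAP-24h either. At 6 and 24 hours respectively, fibroblast markers summed to 518 to 969 and 277 to 381 FPKM, basal and squamous epithelial markers to 61 to 77 and 33 to 48 FPKM, smooth muscle markers to 454 to 551 and 256 to 411 FPKM and endothelial markers to 1203 to 1615 and 909 to 960 FPKM, all lower at 24 hours. Higher at 24 hours were neutrophil markers, at 2007 to 4467 and 4549 to 16481 FPKM, and club cell markers, at 28295 to 29625 and 37555 to 47345 FPKM. Apart from the fibroblast list, no marker of these 6 lists was called in SAP. In DEX, Lamp3, Bnc1, Kdr, Marco, Msr1 and Cyp2e1 were called higher and the smooth muscle gene Cnn1 lower. Of these, Marco had means of only 0.0067 FPKM in DEX-6h and 0.30 FPKM in DEX-24h. From DEX-6h to DEX-24h the sums of fibroblast markers (387 to 837 and 265 to 351 FPKM) and endothelial markers (1404 to 1544 and 982 to 1126 FPKM) were lower without overlap, and those of hepatocyte markers (18.6 to 39.9 and 218 to 332 FPKM) higher. The hepatocyte sums were mostly Cyp2e1, with means of 24.8 FPKM in DEX-6h and 286 FPKM in DEX-24h. In Emo 4 further markers were called higher (Ccdc39, Lamp3, Tp63 and Fabp4) and 4 lower (Msln, Cldn5, Ttr and Ctrb1). From Emo-6h to Emo-24h, 8 lists did not overlap: the sums of alveolar type 1, mesothelial, fibroblast, smooth muscle, endothelial and red blood cell markers were lower at 24 hours, and those of macrophage markers (141 to 223 and 229 to 314 FPKM) and neutrophil markers (1344 to 3810 and 4326 to 6605 FPKM) higher. For alveolar type 1 markers the median log2 fold change of 0.06 differed in sign from the sum. The part of these cell types in the changes of Adh6, Adh7 and Aldh1a3 was not tested.

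For these times 2 members were called in SAP beside 2.42% of all genes tested, 1 in DEX beside 7.14% and 2 in Emo beside 9.41%. The second gene in Emo was Aldh1a3, with a log2 fold change of 1.01 (SE 0.38, adjusted p = 0.0411) close to the 2-fold limit. This call was lost with RLE scaling, with DESeq2, with no low-count filter, with a replicate block, with the Emo groups fitted alone, and without each library of these groups except Emo-24h replicate 3. Sham had 0 members called by edgeR, 1 by DESeq2 (Adh7) and 2 at an unadjusted p under 0.05, with 0.257% of genes called, and Con 0 by edgeR and DESeq2 and 1 at an unadjusted p under 0.05, with 0.00628% of genes called. Aldh2 was lower at 24 hours by less than 2-fold in DEX (log2 fold change -0.50, SE 0.15, adjusted p = 0.0182) and in Emo (-0.44, SE 0.15, adjusted p = 0.0268), and it was also lower in Sham-24h than in Con-24h (-0.50, SE 0.15, adjusted p = 0.0405). Aldh1a1 passed the adjusted p threshold in none of the 21 comparisons.

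The difference between the times in the effect of SAP against Sham, given as a description, was -3.57 on the log2 scale for Adh6 and -5.35 for Adh7, beside 0.0314% of all genes called. The difference between the times in the effect of each drug against SAP holds the same SAP-24h and SAP-6h values and is therefore also a description. With DEX it was 2.87 for Adh6 (SE 0.60) and 5.85 for Adh7 (SE 1.08), and with Emo 3.00 (SE 0.60) and 6.80 (SE 1.11). With any 1 library left out it lay between 2.54 and 3.30 for Adh6 and between 5.17 and 6.43 for Adh7 with DEX, and between 2.66 and 3.27 and between 6.50 and 7.14 with Emo. For Adh7 these values combine the fold changes at 24 hours with the ones below 0 at 6 hours given above. Of all genes tested, 0.138% were called in the interaction of DEX with time and 1.68% in that of Emo.

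Genes around these enzymes in retinoid metabolism were followed by lists. None of the 6 receptor genes (Rara, Rarb, Rarg, Rxra, Rxrb, Rxrg) was called in any of the 24 comparisons and interactions by edgeR. Of all genes tested, 0.00% to 9.41% were called in these, so that nothing is read from this count. Rara, the most widely expressed RAR, was 25.1, 34.8 and 32.0 FPKM in SAP-24h and 31.2, 29.3 and 31.8 FPKM in Sham-24h. Cyp26b1, which degrades retinoic acid, was 1.47, 1.19 and 1.23 FPKM in DEX-6h and 4.43, 13.4 and 17.8 FPKM in SAP-6h, and 0.92, 1.11 and 0.80 FPKM in DEX-24h and 23.4, 3.43 and 3.39 FPKM in SAP-24h. The DEX libraries were below all SAP libraries at both times, with log2 fold changes of -3.18 (SE 0.67, adjusted p = 0.023) and -3.56 (SE 0.68, adjusted p = 0.00268). Fits added after the data were seen showed that the 6 h call was lost without any 1 of the DEX-6h libraries or without SAP-6h replicate 2 or 3. The size of the 24 h value rested on SAP-24h replicate 1, without which it was -1.89 (adjusted p = 0.0376), and its call was lost with the 2 groups fitted alone (adjusted p = 0.103). The list held 1 other gene that passed the low-count filter, Cyp26a1, which was at or under 0.4 FPKM in every library and was not called in DEX against SAP. Cyp26a1 was lower in SAP-24h (0.02, 0 and 0.03 FPKM) than in Con-24h (0.14, 0.09 and 0.16 FPKM; log2 fold change -2.77, adjusted p = 0.0352) and higher in Emo-24h (0.40, 0.29 and 0.05 FPKM) than in SAP-24h (3.64, adjusted p = 0.0161). The first of these calls was lost without each library of the groups except SAP-24h replicate 3, and the second without Emo-24h replicate 1 or 2 or SAP-24h replicate 1.

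Of the 8 uptake, binding and storage genes, 2 were called in DEX-24h against SAP-24h, beside 3.73% of all genes tested, and 0 in DEX-6h against SAP-6h, beside 0.515%. Lrat, which stores retinol as esters, was 0.49, 0.44 and 0.77 FPKM in DEX-24h and 2.02, 0.62 and 1.57 FPKM in SAP-24h (log2 fold change -1.42, adjusted p = 0.0486). Lpl, lipoprotein lipase, was 154, 177 and 142 FPKM in DEX-24h and 50.6, 85.6 and 64.3 FPKM in SAP-24h (1.16, adjusted p = 0.034). Both calls were lost in 5 of 6 fits that left out 1 library, all but the fit without SAP-24h replicate 2, and that of Lrat also with no low-count filter, with a replicate block and with the 2 groups alone. Of all cell type markers, the club cell gene Cldn10 (1.31, adjusted p = 0.0262) was the one called in DEX-6h against SAP-6h, and its part in these differences was not tested.

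Among 12 microsomal retinol and retinal oxidoreductases, 1 was called in DEX-6h against SAP-6h, beside 0.515% of all genes tested, and 0 in DEX-24h against SAP-24h, beside 3.73%. Rdh16, a retinol dehydrogenase, was 3.33, 2.42 and 3.32 FPKM in DEX-6h and 1.28, 0.53 and 0.78 FPKM in SAP-6h (log2 fold change 1.79, SE 0.32, adjusted p = 0.0096), and 1.80, 1.68 and 2.16 FPKM in DEX-24h beside 0.80, 1.54 and 0.85 FPKM in SAP-24h, a difference that was not called. The 6 h call was lost without DEX-6h replicate 1, SAP-6h replicate 2 or SAP-6h replicate 3 (adjusted p = 0.0588, 0.0916 and 0.0688) and with the 2 groups alone (adjusted p = 0.0628). Rdh16 was also higher in DEX than in Sham, with log2 fold changes of 2.48 at 6 hours and 1.55 at 24 hours (adjusted p = 8.98e-05 and 0.00441). In Emo-24h against DEX-24h, Cyp26b1 was higher (4.20, SE 0.70, adjusted p = 0.000802) and Rdh16 lower (-1.05, SE 0.32, adjusted p = 0.0398), the latter a call lost with a replicate block, with the 2 groups alone and without each library of these groups except Emo-24h replicate 3.

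**Figure D4:**
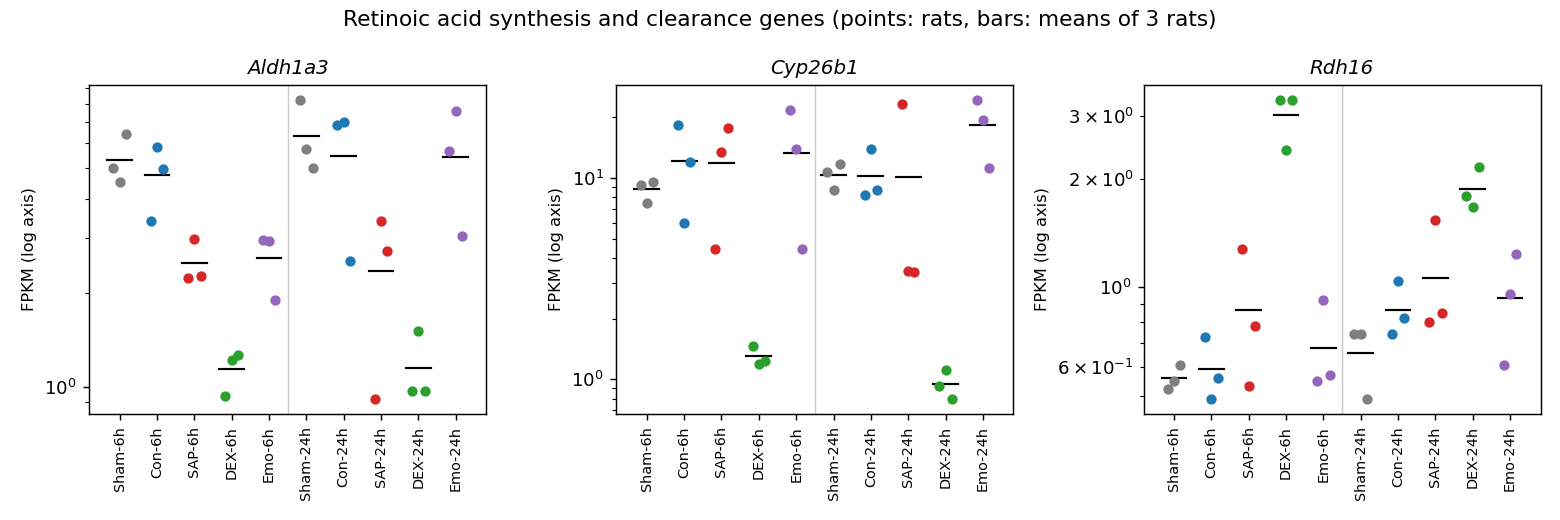
FPKM (vertical log axes, FPKM) of Aldh1a3, which makes retinoic acid, Cyp26b1, which degrades it, and Rdh16, a retinol dehydrogenase, in the 30 libraries; points are single rats in the colours of the conditions and bars are means of 3 rats. DEX-6h and DEX-24h are low for Aldh1a3 and Cyp26b1 and high for Rdh16; against SAP, Aldh1a3 was called at neither time and Rdh16 only at 6 hours.

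In SAP-24h against Sham-24h the same list held 1 gene called of 12, beside 5.00% of all genes tested. This was Dhrs9, a retinol dehydrogenase, at 0.62, 0.86 and 2.49 FPKM in Sham-24h and at 3.46, 9.62 and 6.51 FPKM in SAP-24h. Its log2 fold change was 2.41 (SE 0.62, adjusted p = 0.0151), a call lost without Sham-24h replicate 1 or 2 and with the 2 groups alone (adjusted p = 0.0678, 0.0726 and 0.109). Dhrs9 thus differed in the opposite direction from Adh7. Against Con-24h, Dhrs9 (2.67) and the carotenoid-cleaving Bco2 (1.05) were up-regulated, 2 of 12 beside 6.91% of all genes tested, and the call of Bco2 was lost without SAP-24h replicate 2 (0.38, adjusted p = 0.326), without Con-24h replicate 1 or 2, with a replicate block and with the 2 groups alone. Of the 14 other alcohol and aldehyde dehydrogenases tested, 0 were called in SAP-24h against either control and 0 in DEX-24h against SAP-24h. In Emo-24h against SAP-24h 1 was called, beside 3.19% of all genes tested: Aldh1l1, a folate enzyme, at 0.46, 0.47 and 0.48 FPKM in Emo-24h and 0.92, 1.16 and 1.51 FPKM in SAP-24h (log2 fold change -1.49, SE 0.29, adjusted p = 0.00504), a call lost with the 2 groups alone (adjusted p = 0.102). In Emo-24h against DEX-24h 1 was called, beside 5.06%: Aldh1b1, at 0.48, 0.08 and 0.22 FPKM in Emo-24h and at or under 0.01 FPKM in DEX-24h (adjusted p = 0.0025), where the low level leaves the size of the difference uncertain. Adh4, the neighbour of Adh6, was 6.80, 9.30 and 8.81 FPKM in SAP-24h and 12.7, 11.8 and 11.1 FPKM in Sham-24h and was among those not called. Adh6a, another neighbour and a relative of Adh6, was looked at after the values were known and had 0.46 to 0.50 FPKM in SAP-24h and 0.28 to 0.61 FPKM in Sham-24h.

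The genes most like each of the 5 members called in some comparison were ranked by Pearson r of log2 CPM over the 30 libraries among 12363 genes, as a description, since all points share group differences, depth and scaling. For Adh6 they were Cpt2, Olfml3 and Cyp2d3 (r = 0.76, 0.75 and 0.75), and for Adh7 Ppa2 and Cntn2 (0.75 and 0.75). The highest values were those of Aldh1a3, with Trerf1, Trib2 and Sept4 (0.90, 0.89 and 0.89), and they were also high within the 15 libraries of each time (0.80 to 0.89 at 6 hours and 0.90 to 0.96 at 24 hours). Aldh1a2 was most like Rspo1, Upk1b and Aqp5 (0.81, 0.81 and 0.77). Aldh1a7 had the lowest values, with Ptgdr2, Tubb4a and Sardh (0.62, 0.62 and 0.61), and with Ptgdr2 the r was 0.08 at 6 hours and 0.77 at 24 hours. It was also low at 6 hours for Adh6 with Cyp2d3 (0.26, and 0.83 at 24 hours), Adh7 with Cntn2 (0.27 and 0.86) and Aldh1a7 with Tubb4a (0.16 and 0.69).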

How the data were processed

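Polyadenylated RNA of 30 rat lungs was sequenced as paired reads. The authors trimmed reads, mapped them with TopHat2 to the Ensembl rat genome rat_ensembl_v6 and discarded multi-mapped reads. The authors deposited counts of uniquely mapped reads per gene, not normalized, and FPKM rounded to 2 decimals. From the counts, genes were filtered with filterByExpr (minimum count 10, minimum total 15), scaled by TMM and fitted in 1 edgeR quasi-likelihood model of 10 groups (20 residual degrees of freedom; edgeR 4.0.16, limma 3.58.1, R 4.3.3), with Benjamini-Hochberg adjustment over 15934 genes in each of 21 comparisons and 3 interactions. A DEG had an adjusted p under 0.05 and a change of at least 2-fold. FPKM served for levels, with no test. Each library was a separate rat.

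On counts simulated for SAP-24h vs Sham-24h (15757 genes), 23 of 67 genes changed by 1 on the log2 scale, 62 of 67 by 2 and 62 of 66 by 3 were called, with 4 of 15557 unchanged genes. Changes were planted only in SAP-24h, with the same mean in all other groups, and only in genes above a minimum read count. The rates therefore do not describe genes with few reads. Alternatives were RLE scaling, DESeq2 1.42.0, no low-count filter, the compared groups alone, a replicate block and each library left out. Named genes were all members, the called genes of 5 pathway lists (at most 4 per list) and the 3 genes most like each called member (log2 CPM, prior count 2, mean of at least 1 FPKM); some genes that this rule names are not reported here. Members and lists were chosen with earlier results of these data known. Promoter windows came from RefSeq (GRCr8) and were searched with Python 3.11.15 (pandas 2.3.3); figures were drawn with matplotlib 3.10.9.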

Additional observations from a re-analysis of the deposited data

Results flagged for a closer look

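The effect of SAP and of each drug on Adh6 and Adh7 had a large difference between 6 and 24 hours. They were flagged where the interaction was called by edgeR. The differences are given as descriptions and nothing is read from that test, since they hold the values behind the choice of the family. For SAP against Sham, the log2 fold change was lower at 24 than at 6 hours by a difference of -3.57 for Adh6 and -5.35 for Adh7. That of Adh7 (SE 1.06) did not pass the adjusted p threshold, was not flagged and is printed beside the others. For DEX against SAP the difference was 2.87 for Adh6 and 5.85 for Adh7, and for Emo against SAP it was 3.00 for Adh6 and 6.80 for Adh7. All of them share the SAP-6h and SAP-24h libraries. Adh7 in DEX-24h rested on 2 of 3 rats, since replicate 1 had 0.06 FPKM beside 2.19 and 1.56 FPKM.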

How the results depend on the processing

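The alternatives were run on the 24 counts of members called and on 26 values of single members, 21 of them calls and 5 differences between the times, and none of these 26 values reversed. RLE scaling, no low-count filter and the replicate block each left 1 member called instead of 2 from Emo-6h to Emo-24h (Aldh1a3 had log2 fold changes of 0.99, 0.99 and 0.98), and every other count of members stayed within 1.5 times; the replicate block and the missing filter also ended the call of Aldh1a7 in Emo-24h vs SAP-24h (adjusted p = 0.053 and 0.0536). Same-numbered libraries did not deviate together (correlations from -0.36 to 0.36, all 3 above 0.1 in 1 of 21 comparisons), so the block pairs libraries by number alone.

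Fitting the compared groups alone, which leaves fewer libraries to estimate the spread, gave 0 members in SAP-24h vs Sham-24h, in Emo-24h vs SAP-24h and in DEX-24h vs DEX-6h. It gave 1 member in DEX-24h vs SAP-24h (where Adh7 did not pass the low-count filter), from Emo-6h to Emo-24h and in DEX-6h vs SAP-6h (Aldh1a3). DESeq2 called 4 members in DEX-24h vs SAP-24h (Adh6, Adh7, Aldh1a7 and Aldh1a3, the last of which was lower in DEX-24h by edgeR). It called 1 each in Emo-6h vs DEX-6h, Sham-24h vs Sham-6h and Emo-24h vs Emo-6h. The cause was not tested.

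With each library left out in turn, 132 of 162 counts of members stayed within 1.5 times. The counts ranged from 1 to 2 in DEX-6h vs Sham-6h, SAP-24h vs SAP-6h and Emo-24h vs Emo-6h, and from 0 to 1 in DEX-24h vs DEX-6h. The differences between the times are descriptions, and nothing is read from how many of them pass a threshold. For SAP against Sham that of Adh6 lay between -3.86 and -3.12 with each library left out, and the number of members past it was 0 with the compared groups alone, 2 by DESeq2 and from 0 to 1 without 1 library. For the drugs against SAP it was 0 with DEX and 1 with Emo with the compared groups alone, and from 0 to 2 in both without 1 library. Among genes of the pathway lists, for which these alternatives were added after the data were seen, Ttr reversed from Emo-6h to Emo-24h without Emo-6h replicate 1 (0.65, in a range of -3.53 to 0.65 over 6 fits). Adh7 had 2 to 5 reads per library in SAP-24h, which leaves the size of its fold changes against this group uncertain.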

Other observations

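Between 6 and 24 hours, 7.14% of all genes tested were called in DEX, 9.41% in Emo and 2.42% in SAP, and the genes of the vitamin A and aldehyde lists called with them are given as single values. Dhrs3, which reduces retinaldehyde back to retinol, was 77.5, 90.8 and 84.0 FPKM in DEX-6h and 28.9, 33.2 and 31.7 FPKM in DEX-24h (log2 fold change -1.41, SE 0.19, edgeR adjusted p = 4.37e-05). Lrat, which stores retinol as esters, was higher at 24 than at 6 hours in SAP (1.97, SE 0.45, adjusted p = 0.0143) and in Emo (2.19, SE 0.46, adjusted p = 0.00098), though its levels stayed at or under 2.02 FPKM. The SAP call was lost without SAP-24h replicate 1 or SAP-6h replicate 1 and with the 2 groups alone (adjusted p = 0.0659, 0.0709 and 0.103). Lipoprotein lipase, Lpl, which takes part in the uptake of retinyl esters, was higher at 24 hours in DEX (1.54, adjusted p = 0.00241) and in Emo (1.25, adjusted p = 0.00633; 0.94 without Emo-6h replicate 3). The other 2 genes called of the 8 for uptake, binding and storage in Emo were Rbp7 (2.87, adjusted p = 0.0437) and Ttr (-2.91, adjusted p = 0.0294), whose value was 0.65 without Emo-6h replicate 1. The call of Rbp7 was lost without replicate 1 or 3 of either group, and that of Ttr also without Emo-24h replicate 2 or 3. Of 14 other alcohol and aldehyde dehydrogenases, 3 were up-regulated from Emo-6h to Emo-24h (Adhfe1, Aldh1b1 and Aldh3a1) and 1 from DEX-6h to DEX-24h (Adhfe1). In Emo the call of Aldh1b1 was lost without Emo-24h replicate 1 or 3 or Emo-6h replicate 2 or 3 and that of Aldh3a1 without Emo-6h replicate 3, and in DEX that of Adhfe1 without DEX-6h replicate 2 or 3.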
